A study of Mus musculus with 28 samples.

Results

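The genes described here encode the proteins of the mitochondrial ribosome, taken as every protein-coding mouse gene whose GENCODE M21 symbol starts with Mrpl (named for the large subunit) or Mrps (named for the small subunit), with pseudogene names left out. They number 78 of the 30608 genes in the deposited table of normalized read counts, 49 of them Mrpl and 29 Mrps genes, and all 78 passed the filter on low values that 14828 genes of the table passed. In all counts, sums, medians and ratios below, large and small subunit mean Mrpl and Mrps genes by name. The 29 thus include Mrps30, Mrps18a and Mrps36, whose proteins are known to sit elsewhere, as described below. The counts come from RNA-seq of CTLL2, an established line of mouse cytotoxic T cells grown with interleukin-2, which the labels give as strain C57BL/6. Cells in fresh complete medium either received exosomes, small vesicles released by cells, from the mouse melanoma line B16F0 at 0.2 mg/ml, or were left untreated. Exosome-treated cells were sampled at 0.5, 2, 4 and 8 h (n = 3 libraries at each time), untreated cells at the same times (n = 3 each) and untreated cells also at 0 h (n = 4). Every group is the same cell line with no genetic change, the untreated groups received fresh medium too, with no mention of the saline the exosomes were suspended in, and 9 of the 28 libraries are labelled batch 1 and 19 batch 2. The study's design text calls the libraries biological replicates, and the labels do not say whether they came from separate cultures, so p-values measure the spread between these libraries.

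The mitochondrial ribosome translates the few messenger RNAs that mitochondrial DNA encodes, and these specify core subunits of the respiratory chain and ATP synthase. Its ribosomal RNAs are made inside the organelle, while all of its proteins are encoded in the nucleus, made in the cytosol and imported. Many of these proteins descend from bacterial ribosomal proteins, and others are found only in mitochondria. In T cells, mitochondrial translation is known to be needed for growth after activation and for sustained killing by cytotoxic cells.

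The libraries held 6072984 to 24085812 reads assigned to genes, of which the 78 genes took 0.261% to 0.392%. All 13 T cell markers examined were at 10 or more normalized counts in each library. Melanocyte markers, summed over 8 genes, reached 59.8 to 175.5 normalized counts in the exosome-treated libraries and 7.45 to 20.7 in the untreated ones, and their part in the results below was not tested. A set of 8 libraries held skeletal muscle transcripts that the label of a T cell line does not account for. They were exosome-treated 0.5 h replicates 1 and 3, 2 h replicate 2 and 4 h replicates 1 and 2, and untreated 2 h replicate 2 and 8 h replicates 1 and 2. In them, the muscle actin gene Acta1 had 75.2 to 415.3 normalized counts, against 0 to 4.7 in the other 20, and all 8 muscle markers summed to 1070 to 3157, against 506.2 to 947.7 in the other 20. Ckm and Mylpf, 2 of the 8 markers, were read in every library. Fibroblast markers, summed over 6 genes, also stood at 126.2 to 171.1 in these 8 libraries and at 63.8 to 123.3 in the others. Macrophage and dendritic cell markers, summed over 6 genes, stood at 5572 to 10180 in every library. Most of that sum was the single gene Itgax, at 4940 to 9621. Cd68 was at 266.4 to 544.4, Cd14 at 140.1 to 243.5 and Csf1r at 0 to 7.47, and Adgre1 and Lyz2 had means below 1. B cell markers, summed over 5 genes, stood at 10.7 to 129.5, with Ms4a1 at a mean below 1. Results that rest on these libraries are given with and without them, and fewer cells of a type cannot be told apart from less RNA per cell in such bulk samples. Untreated 4 h replicate 1 and exosome-treated 8 h replicate 3 had fewer genes at 0 (15.7% and 22% of genes) than the other libraries (27.8% to 39.9%).

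Promoter sequences are shown for 4 genes of the large subunit that are described below, because a motif searched for lay in each and their transcripts were among those that moved furthest in untreated or exosome-treated cells. Each line gives 250 bases upstream of the RefSeq transcription start on the plus strand, 5′ to 3′, of build GRCm38.p6. Capitals mark the matches to the motif of NRF1 (Mrpl12), of ETS factors such as GABPA (Mrpl27), of YY1 and the E-box (Mrpl36, where the YY1 match is on the reverse strand) and of the E-box alone (Mrpl20). The windows lie at chr11:120484387-120484636 (Mrpl12), chr11:94653541-94653790 (Mrpl27), chr13:73330759-73331008 (Mrpl36) and chr4:155802628-155802877 (Mrpl20).
Mrpl12: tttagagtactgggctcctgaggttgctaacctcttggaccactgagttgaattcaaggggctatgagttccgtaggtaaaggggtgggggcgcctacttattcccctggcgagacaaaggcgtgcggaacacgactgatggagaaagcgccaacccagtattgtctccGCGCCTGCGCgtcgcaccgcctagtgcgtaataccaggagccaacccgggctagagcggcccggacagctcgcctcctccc
Mrpl27: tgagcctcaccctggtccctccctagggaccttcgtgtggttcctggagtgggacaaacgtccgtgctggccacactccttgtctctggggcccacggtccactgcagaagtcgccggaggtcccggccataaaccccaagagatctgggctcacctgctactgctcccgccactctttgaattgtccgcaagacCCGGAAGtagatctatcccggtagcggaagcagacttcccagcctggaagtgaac
Mrpl36: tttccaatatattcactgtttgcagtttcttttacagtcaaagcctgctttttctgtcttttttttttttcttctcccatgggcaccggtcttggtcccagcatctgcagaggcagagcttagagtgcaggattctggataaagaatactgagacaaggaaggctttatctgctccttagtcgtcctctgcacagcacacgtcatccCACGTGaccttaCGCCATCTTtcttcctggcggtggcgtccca
Mrpl20: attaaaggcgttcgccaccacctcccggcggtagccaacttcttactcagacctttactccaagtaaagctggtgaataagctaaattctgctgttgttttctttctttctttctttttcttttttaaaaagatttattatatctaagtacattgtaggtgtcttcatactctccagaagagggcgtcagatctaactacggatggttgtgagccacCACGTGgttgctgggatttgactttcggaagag

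These motifs are those of factors known to act on nuclear genes for mitochondrial proteins. RefSeq windows reaching from 250 bases before to 50 after the start could be matched for 69 of the 78 genes, and the shares below are of genes with the letters in any of their windows, out of 27025 genes in all and 9695 that passed the filter. On either strand, the ETS letters CCGGAAG were in the windows of 26 of the 69 genes (37.7%), against 9.93% of all genes and 21.1% of those that passed the filter. The NRF1 letters, GCGC and GCGC with any 2 bases between them, were in 14 (20.3%), against 7% and 15.1%. The YY1 letters AAGATGGCG were in 8 (11.6%), against 1.64% and 3.72%, and the E-box CACGTG, which reads the same on both strands, was in 5 (7.25%), against 8.09% and 11.5%. A match is a description of letters and was not tested as a binding site.

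Levels of the 78 genes differed widely. Over the 28 libraries, the median gene had a mean of 497.9 normalized counts, 7 genes were above 1000, and 4 were below 100. Per kilobase of exons, the median was 205.4 normalized counts, and the highest levels were those of Mrpl12 (1600 normalized counts per kb), Mrps7 (879.2), Mrpl34 (806.5) and Mrpl10 (701.1). Mrpl12 and Mrpl10 form the ribosome's flexible stalk, which recruits translation factors, Mrps7 is a core protein of the small subunit's head, and Mrpl34 is a small conserved protein of the large subunit. The lowest per kilobase were Mrpl23 (7.20), Mrpl53 (8.46), Mrpl48 (28.8) and Mrps33 (37.9). Some of these levels are uncertain: a processed pseudogene of Mrpl23 had a mean of 256.6 normalized counts against 35.2 for Mrpl23 itself, and one of Mrpl48 had 166.2 against 234.7. Mrpl53, a mitochondria-specific protein, reached 10 normalized counts in only 4 libraries, and 88% of its exon bases are shared with the same-strand gene Gm42688. In all, 17 of the 78 genes share more than 10% of their exon bases with another gene, and the library kit named in the labels does not keep strand, so reads of overlapping genes on opposite strands cannot be told apart.

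**Figure D1:**
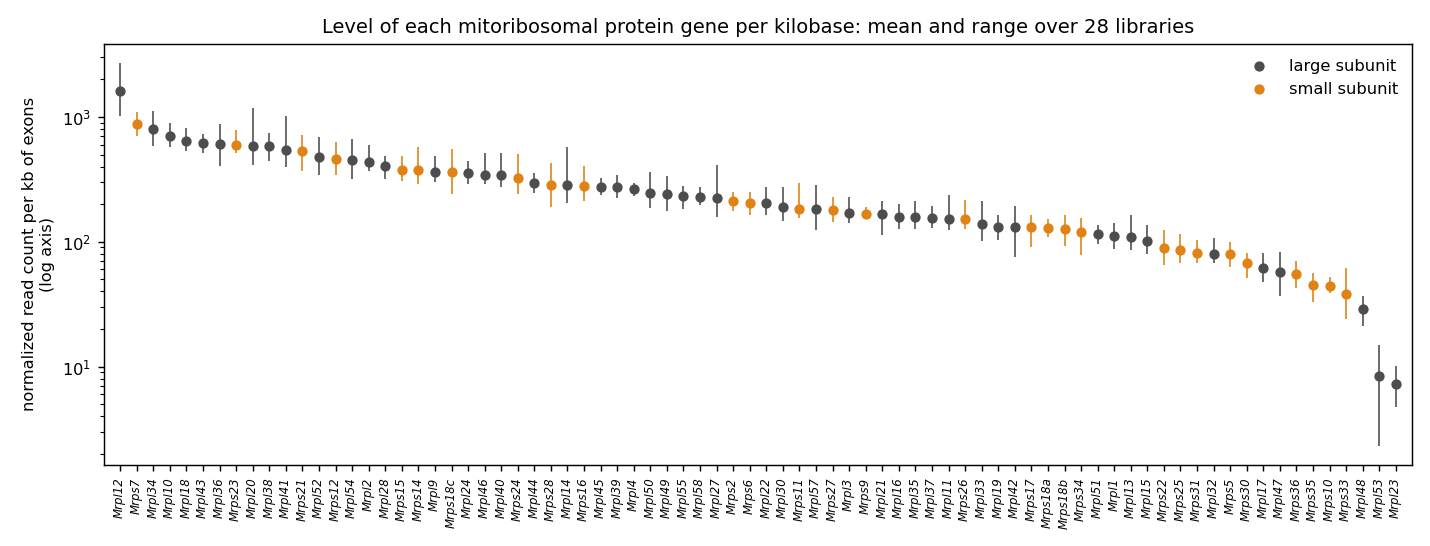
Mean normalized read count per kilobase of exons (log axis) of each of the 78 mitochondrial ribosomal protein genes over 28 libraries, with bars from the lowest to the highest library. Grey points are large subunit genes and orange points small subunit genes. Mrpl12 was highest at 1600 and Mrpl23 lowest at 7.20.

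The genes also differed in how much they varied between libraries. Mrps9, a conserved protein of the small subunit, was the steadiest, at 898.6 to 1085 normalized counts over all 28 libraries (coefficient of variation 5.6%). Mrpl4 followed at 611.8 to 773.3 (6.66%). At the other end, Mrpl53 had a coefficient of variation of 42.5% at its low counts, and Mrpl14, Mrpl20, Mrpl41 and Mrpl12 had 32.9%, 31.1%, 29.6% and 27.5%. The last 4 of these are all large subunit genes, and they are also the 4 that stood furthest from 0 h in untreated cells at 8 h.

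The first question is how the mitoribosomal genes moved with time in untreated cells after fresh medium was given. Summed over the large subunit, normalized counts averaged 37962 ± 3921 in untreated cells at 8 h (SD, n = 3) and 28248 ± 1550 at 0 h (SD, n = 4). Over the small subunit they averaged 17997 ± 1001 at 8 h and 14434 ± 604 at 0 h. Of the 78 genes, 59 rose at 8 h and none fell (limma on log2(normalized count + 1), Benjamini-Hochberg adjusted p below 0.05 over all genes). In replicate 3, the 8 h library without muscle transcripts, 56 of the 59 were higher than in all 4 libraries at 0 h. The 59 were called with replicate 3 and the same 0 h libraries in the fit, so this count is not separate support. Across all genes tested, 15.9% rose and 15.8% fell in this comparison. By name, the rises were 40 of 49 in the large subunit, with a median log2 fold change of 0.40, and 19 of 29 in the small subunit, with a median of 0.37. Mrps30, known to sit in the large subunit, was among the 19. The median over all genes tested was -0.0098. A fold change above 0 was found for 76 of the 78 genes, against 48.8% of all genes, and 50 had 8 h libraries that were all above the 0 h libraries, against 13% of all genes tested.

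**Figure D2:**
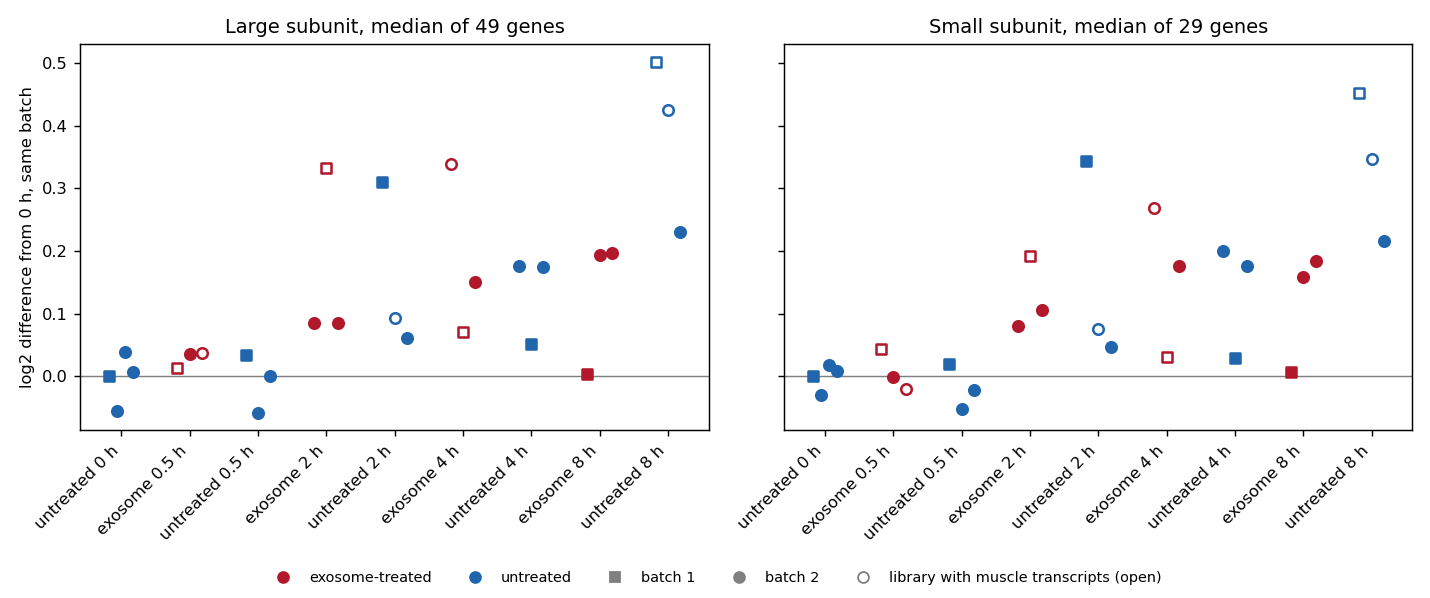
Median log2 difference of each library from untreated 0 h of the same batch over 49 large subunit genes (left) and 29 small subunit genes (right), by group. Red marks are exosome-treated and blue untreated libraries, squares batch 1 and circles batch 2, and open marks the 8 libraries with muscle transcripts. The highest marks, 0.50 and 0.43 for the large subunit, are the 2 untreated 8 h libraries with muscle transcripts. For the large subunit, the filled circles of both treatments lie at -0.058 to 0.035 at 0.5 h and at 0.19 to 0.23 at 8 h.

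That 8 h rise was larger in the 2 untreated libraries with muscle transcripts than in the third. Untreated 8 h replicates 1 and 2 stood 0.50 and 0.43 above 0 h of their own batch in the large subunit's median log2 difference, and 0.45 and 0.35 in the small subunit's. Replicate 3, which had 3.6 normalized counts of Acta1, stood 0.23 above in the large and 0.22 above in the small subunit. Leaving out all 8 libraries with muscle transcripts, an alternative added after the data were seen, left replicate 3 as the lone 8 h library, assumed to vary as the other groups do. The subunit medians were then 0.23 and 0.21, and 0 of the 78 genes passed the test, against 0.054% of all genes called higher and 2.5% called lower. Without replicate 1 alone 34 genes rose, against 6.58% of all genes, and without replicate 2 alone 34 rose, against 6.39%. Other libraries with muscle transcripts were not all raised. The large subunit's median was 0.34 in exosome-treated 4 h replicate 1 (Acta1 at 415.3 normalized counts) and 0.33 in exosome-treated 2 h replicate 2 (228.7). It was 0.013 and 0.038 in exosome-treated 0.5 h replicates 1 and 3 (194.3 and 326.8), 0.070 in exosome-treated 4 h replicate 2 (75.2) and 0.093 in untreated 2 h replicate 2 (136.1). The part of the muscle transcripts in the rise was not tested beyond these values.

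Among batch 2 libraries without muscle transcripts, which include both treatments, the subunit medians stood higher at the later times. The large subunit's median log2 difference from 0 h was -0.058 to 0.035 in 3 libraries at 0.5 h, 0.061 to 0.085 in 3 at 2 h, 0.15 to 0.18 in 3 at 4 h and 0.19 to 0.23 in 3 at 8 h. The small subunit's was -0.053 to -0.00073, 0.047 to 0.11, 0.18 to 0.20 and 0.16 to 0.22 at the same times. From 0.5 h on, the ranges of the large subunit did not overlap between successive times, and those of the small subunit overlapped only between 4 and 8 h. The 3 libraries at 0 h, at -0.056 to 0.038 (large) and -0.029 to 0.018 (small), overlapped those at 0.5 h in both subunits. Batch 1 libraries followed another course: untreated 2 h replicate 1 stood 0.31 above 0 h in the large subunit, while untreated 4 h replicate 2 stood 0.051 above and exosome-treated 8 h replicate 1 stood 0.0031 above. The summed macrophage and dendritic cell markers also moved within batch 1. They were at 6289 at 0 h, 5702 in exosome-treated and 5871 in untreated cells at 2 h, 7697 in exosome-treated and 8231 in untreated cells at 4 h, and 7145 in exosome-treated and 5572 in untreated cells at 8 h. The large subunit's medians in these libraries were 0.33 in exosome-treated and 0.31 in untreated cells at 2 h, 0.070 in exosome-treated and 0.051 in untreated cells at 4 h, and 0.0031 in exosome-treated and 0.50 in untreated cells at 8 h. Of these 6 libraries, the 3 with the highest medians had the lowest marker sums. Most of each sum was the single gene Itgax. It was at 5141 in exosome-treated and 5232 in untreated cells at 2 h, 7055 and 7509 at 4 h, and 6600 and 4940 at 8 h. Cd68, another of the markers, was at 359.5 and 416.2, 440.8 and 544.4, and 402.5 and 394.1 in the same order. Like Itgax, Cd68 was highest in the libraries at 4 h. Cd14 did not follow Itgax, at 198 and 220, 198.8 and 175, and 140.1 and 235.8 in the same order. The part of these markers, or of any change in cell types, was not tested.

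The ratio of summed large to summed small subunit counts was 1.91 to 2.19 in the 8 libraries with muscle transcripts and 1.91 to 1.99 in the 20 without them. With Mrpl12 left out, it was 1.78 to 1.97 in the 8 and 1.78 to 1.85 in the 20.

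The 5 genes furthest above 0 h in untreated cells at 8 h were all of the large subunit. On GRCm38, Mrpl14 lies at chr17:45686322-45698495, Mrpl41 at chr2:24974117-24975098, Mrpl12 at chr11:120484613-120489065, Mrpl20 at chr4:155802878-155809975 and Mrpl27 at chr11:94653767-94660089, with Mrpl41 on the minus strand and the others on the plus strand. Mrpl14, which lies at the face that joins the small subunit in the mature ribosome, had 547.1, 524.2 and 314 normalized counts in untreated 8 h replicates 1, 2 and 3, against 196.1, 203.9, 265.6 and 198.9 in the 0 h libraries. All 8 h libraries were above all 0 h libraries, and the 2 with muscle transcripts were furthest above. Its log2 fold change was 1.06 ± 0.20 (SE), with a limma adjusted p of 0.00136, and 0.52 without the libraries with muscle transcripts. Mrpl41, a protein found in mitochondrial but not bacterial ribosomes, had 853.1, 907.7 and 531.6 normalized counts in the 8 h libraries, against 369.2, 352.3, 417.4 and 358.5 at 0 h. The groups did not overlap, and replicate 3 was again the lowest at 8 h. For Mrpl41 the log2 fold change was 0.99 ± 0.19 (SE; limma adjusted p = 0.00132), and 0.49 without those libraries.

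Mrpl12, the stalk protein whose promoter window holds the NRF1 letters shown above, had 3948, 4123 and 2645 normalized counts in untreated 8 h replicates 1, 2 and 3, against 1546, 2032, 2101 and 2062 at 0 h. No 8 h library reached down to the 0 h libraries. The log2 fold change was 0.89 ± 0.17 (SE; limma adjusted p = 0.00155), 1.35 within batch 1 and 0.68 within batch 2, and 0.36 over libraries without muscle transcripts. Mrpl20, which binds ribosomal RNA and has a bacterial counterpart needed for assembly, had 1953, 1430 and 950 normalized counts at 8 h, against 863.8, 689.4, 764.5 and 787.2 at 0 h, without overlap. Mrpl20 had a log2 fold change of 0.82 ± 0.19 (SE; limma adjusted p = 0.00402), and of 0.32 without the libraries with muscle transcripts. Mrpl27, whose bacterial counterpart reaches the site where peptide bonds form, had 407.6, 295.3 and 240.8 normalized counts at 8 h, against 197.6, 166.2, 178.6 and 154.3 at 0 h. Its groups did not overlap either, and its log2 fold change was 0.81 ± 0.15 (SE; limma adjusted p = 0.000997), and 0.51 without those libraries.

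**Figure D3:**
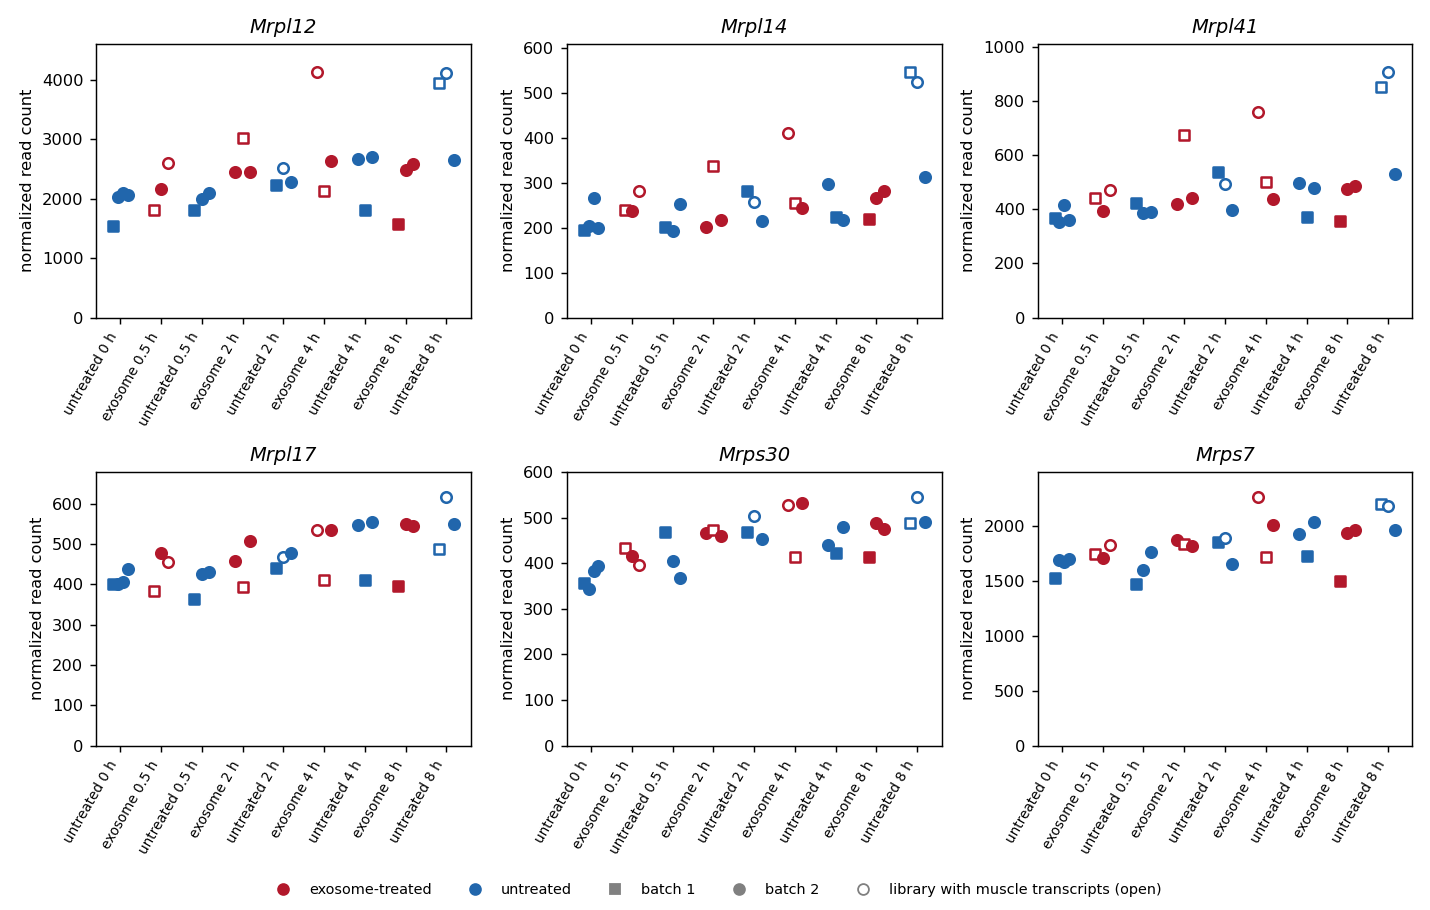
Normalized read counts of 6 mitochondrial ribosomal protein genes in each of 28 libraries, by group, from 0 upward. Red marks are exosome-treated and blue untreated libraries, squares batch 1 and circles batch 2, and open marks the libraries with muscle transcripts. Mrpl12, Mrpl14 and Mrpl41 were highest in the untreated 8 h libraries with muscle transcripts and in exosome-treated 4 h replicate 1. Mrpl17 was lower in the batch 1 libraries at 4 h (411.3 exosome-treated, 411.1 untreated) than in those of batch 2.

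Before 8 h, single genes passed the test in untreated cells. At 0.5 h 0 of 78 passed by limma, edgeR or DESeq2 (1 at an unadjusted p below 0.05, against 3.34% of all genes), against 0.189% of all genes called, and the subunit medians were -0.0023 and 0.00040. The smallest p-values at 0.5 h were those of Mrpl38 (log2 fold change -0.14) and Mrpl28 (-0.16), both of the large subunit and both at a limma adjusted p of 0.9998. At 2 h, Mrps30 and Mrps18b rose, against 0.83% of all genes called higher, with 76 of 78 genes above 0, against 50.5% of all genes, and subunit medians of 0.14 and 0.12. Mrps30, which despite its name is known to sit in the large subunit, had 469.2, 505 and 453 normalized counts in untreated cells at 2 h, against 356.2, 344.1, 383.2 and 394.7 at 0 h. All 2 h libraries were above all 0 h libraries, the log2 fold change was 0.37 ± 0.090 (SE; limma adjusted p = 0.0326), and without the libraries with muscle transcripts it was 0.33 (adjusted p = 0.0906). Mrps18b had 262.4, 341.6 and 302.9 at 2 h, against 194.7, 279.3, 239.7 and 264.9 at 0 h, with overlap, a log2 fold change of 0.33 ± 0.082 (SE) and a limma adjusted p of 0.0374, and 0.28 with an adjusted p of 0.117 without those libraries. Without those libraries the count at 2 h was 1, and the gene called was another one, Mrpl1 of the large subunit (0.39, limma adjusted p = 0.0440). Leaving out any 1 library at 0 h or at untreated 2 h left 0 or 1 of these calls.

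At 4 h, Mrpl17 rose in untreated cells, against 0.223% of all genes called higher, with 71 of 78 genes above 0, against 51.7% of all genes, and subunit medians of 0.14 in both. Mrpl17, a conserved protein of the large subunit, had 546, 411.1 and 554.4 normalized counts in untreated 4 h replicates 1, 2 and 3, against 399.5, 401.8, 405.4 and 437.2 at 0 h. Replicates 1 and 3, of batch 2, were above all 0 h libraries, and replicate 2, of batch 1, was among them. The log2 fold change was 0.30 ± 0.075 (SE; limma adjusted p = 0.0426), 0.041 within batch 1 and 0.41 within batch 2, and without the libraries with muscle transcripts it was 0.30 (adjusted p = 0.0664), while Mrps26 of the small subunit was called in its place (0.26, limma adjusted p = 0.0402). This call was lost without any 1 of untreated 0 h replicates 2, 3 and 4, untreated 0.5 h replicates 2 and 3, untreated 2 h replicate 3, untreated 4 h replicates 1 and 3, exosome-treated 0.5 h replicates 1, 2 and 3, exosome-treated 4 h replicate 3 and exosome-treated 8 h replicate 3. A limma F test over all times in untreated cells called 43 of the 78 genes, 29 large and 14 small, against 21.6% of all genes. Without the libraries with muscle transcripts it called 6 (Mrpl18, Mrpl19, Mrpl38, Mrps6, Mrps26 and Mrps28), against 4.76% of all genes. Without untreated 8 h replicate 1 it called 12, against 10.4% of all genes, and without replicate 2 it also called 12, against 7.38%.

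The comparison the study was built for sets exosome-treated against untreated cells at each time, and no mitoribosomal gene passed the limma test in it. At 0.5, 2 and 4 h, limma, edgeR and DESeq2 each called 0 of 78, against 0.243%, 0.189% and 0.155% of all genes called by limma. The large subunit's medians were 0.049, -0.014 and 0.075 and the small subunit's 0.037, -0.028 and 0.028 at these times, and 1, 0 and 0 genes were at an unadjusted p below 0.05, against 4.31%, 1.65% and 4.35% of all genes. At 0.5 h the smallest p-values were those of Mrps28 (log2 fold change 0.35 ± 0.16, SE) and Mrps35 (-0.20 ± 0.10, SE), both proteins of the small subunit. Mrps28 had 179.4, 197.5 and 263.8 normalized counts in exosome-treated cells, against 148.5, 159.7 and 188.4 in untreated cells, and the groups overlapped. Over libraries without muscle transcripts the log2 fold changes at 0.5 h were 0.19 for Mrps28 and -0.11 for Mrps35. The smallest at 2 h were those of Mrps33 (-0.34 ± 0.23, SE) and Mrps11 (0.19 ± 0.14, SE), and at 4 h those of Mrpl20 (0.41 ± 0.20, SE) and Mrps33 (-0.45 ± 0.23, SE). Mrps11, a conserved protein of the small subunit, had 347.6, 566.1 and 384.2 in exosome-treated cells at 2 h, against 396.3, 385.1 and 335.5 in untreated cells, and its high library was the one with muscle transcripts; without them the log2 fold change was -0.0047. The limma adjusted p was 0.9998 for both genes at 0.5 h, 0.9997 for both at 2 h and 0.920 for both at 4 h. Averaged over the 4 times, 0 of 78 genes passed by limma, edgeR or DESeq2 (2 at an unadjusted p below 0.05, against 4.54% of all genes), against 0.459% of all genes called. In that average 68 of 78 genes were below 0, against 50.4% of all genes, with subunit medians of -0.053 and -0.041. The lowest p in that average was that of Mrps33, a mitochondria-specific protein of the small subunit, at -0.31 ± 0.12 (SE; limma adjusted p = 0.840). It had 56.1, 82.2 and 47.1 normalized counts in exosome-treated cells at 2 h, against 102.1, 61.7 and 71.2 in untreated cells, and 62.8, 40.1 and 44.99 in exosome-treated cells at 4 h, against 81.8, 60.3 and 59.4 in untreated cells. The groups overlapped at both times. Leaving out the libraries with muscle transcripts gave log2 fold changes of Mrps33 of -0.83 at 2 h (limma adjusted p = 0.738), -0.63 at 4 h and -0.37 in the average, and of Mrpl20 of 0.24 at 4 h.

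At 8 h, the exosome-treated libraries stood below the untreated ones for most of the 78 genes, without any passing the limma test. Summed counts averaged 30607 ± 3837 in exosome-treated and 37962 ± 3921 in untreated cells for the large subunit, and 15508 ± 1704 in exosome-treated and 17997 ± 1001 in untreated cells for the small subunit (SD, n = 3 each). For the large subunit, exosome-treated replicates 1, 2 and 3 lay at 0.0031, 0.19 and 0.20 above 0 h of their batch, and untreated replicates 1, 2 and 3 at 0.50, 0.43 and 0.23. The log2 fold change was below 0 for 72 of 78 genes, against 49.4% of all genes, with medians of -0.26 in the large and -0.20 in the small subunit. By limma 0 of 78 genes were called, against 0.452% of all genes, and 39 were at an unadjusted p below 0.05, all lower, against 13.1% of all genes. In 29 genes all 3 exosome-treated libraries were below all 3 untreated ones, against 7.79% of all genes. EdgeR called 0 and DESeq2 called 15, all lower, against 4.83% of all genes called lower by DESeq2.

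The lowest p-values at 8 h were those of Mrpl41 and Mrpl12. Mrpl41 had 357.5, 476.2 and 486.2 normalized counts in exosome-treated cells, against 853.1, 907.7 and 531.6 in untreated cells, and Mrpl12 had 1569, 2476 and 2582 in exosome-treated cells, against 3948, 4123 and 2645 in untreated cells. Neither gene's groups overlapped, and in both the untreated library nearest to the exosome-treated ones was the one without muscle transcripts. The log2 fold change of Mrpl41 was -0.77 ± 0.20 (SE; limma adjusted p = 0.0736), -1.25 within batch 1 and -0.53 within batch 2. That of Mrpl12 was -0.70 ± 0.18 (SE; limma adjusted p = 0.0751), -1.33 within batch 1 and -0.39 within batch 2. Without the libraries with muscle transcripts the log2 fold changes were -0.26 and -0.16, and the subunit medians were -0.095 and -0.081, with 0 of 78 genes called, against 0.135% of all genes. The number of calls also turned on single libraries: it was 40 without untreated 8 h replicate 3, against 26.3% of all genes called, 16 without exosome-treated 4 h replicate 1, against 6.12%, and 3 without exosome-treated 2 h replicate 2, against 0.978%. A limma F test for an exosome effect that differs between times called 0 of 78 genes (22 at an unadjusted p below 0.05; edgeR and DESeq2 called 0) and 0 of all genes, of which 12.6% were at an unadjusted p below 0.05. It called 15 without untreated 8 h replicate 3, against 9.08% of all genes.

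**Figure D4:**
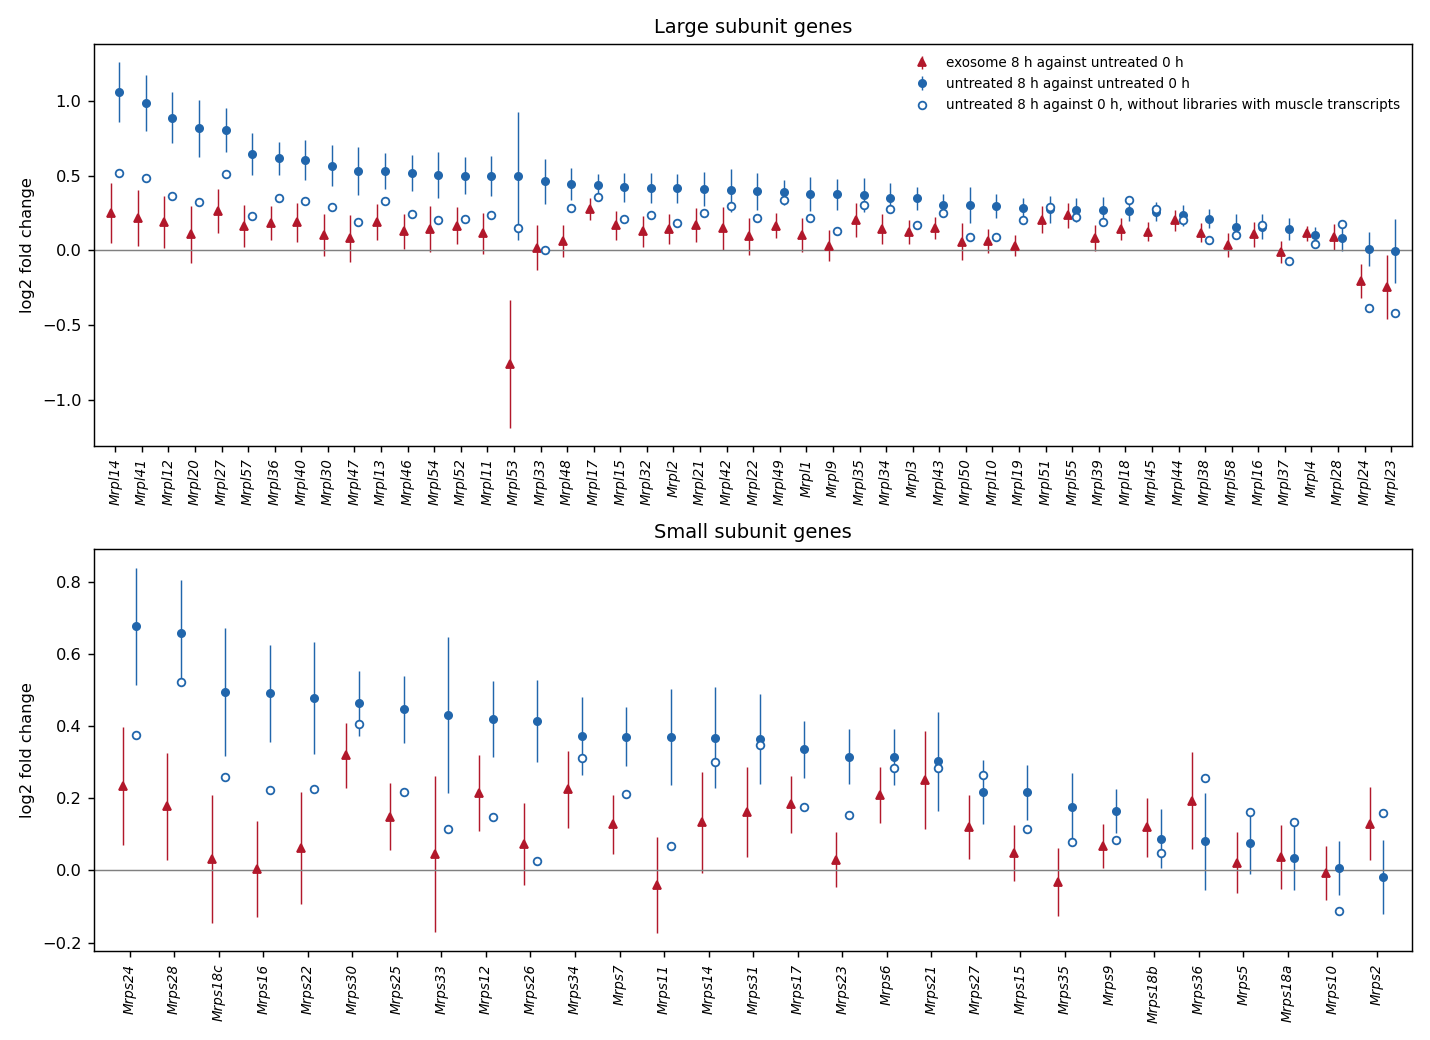
Log2 fold change at 8 h against untreated 0 h of 49 large subunit genes (top) and 29 small subunit genes (bottom), with bars for the SE. Red triangles are exosome-treated cells, blue filled circles untreated cells, and open circles untreated cells without the libraries with muscle transcripts; both treatments share the 0 h libraries. Nearly all mean values of untreated cells are above 0, and Mrpl14 and Mrpl41 reach 1.06 and 0.99 in untreated cells.

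Against untreated 0 h, a comparison added after the data were seen that shares its 0 h libraries with those of untreated cells, exosome-treated cells had 0, 1, 6 and 0 genes called by limma at 0.5, 2, 4 and 8 h. All of these rose, and the shares of all genes called higher were 0.56%, 1.14%, 2.12% and 0.472%. At 0.5 h, 1 gene was at an unadjusted p below 0.05, against 8.07% of all genes, and edgeR and DESeq2 called 0. At 8 h, 10 genes were, against 14.5% of all genes, edgeR called 0 and DESeq2 called 2 as higher, against 0.715% of all genes, and the subunit medians were 0.13 and 0.12. Mrps30 had 465.7, 473.1 and 459.5 normalized counts in exosome-treated cells at 2 h and 527.4, 413.2 and 532 at 4 h, against 356.2, 344.1, 383.2 and 394.7 in untreated cells at 0 h. Its libraries at both times were all above those at 0 h. The log2 fold change was 0.34 ± 0.090 (SE; limma adjusted p = 0.0430) at 2 h and 0.41 ± 0.090 (SE; limma adjusted p = 0.0108) at 4 h. At 8 h, with 415, 489.1 and 476.3 normalized counts, it was 0.32 ± 0.090 (SE; limma adjusted p = 0.0728). Without the libraries with muscle transcripts its values were 0.32, 0.52 and 0.32 at 2, 4 and 8 h, and its limma adjusted p was 0.161, 0.0738 and 0.0688. Its 2 h call was lost without any 1 library of untreated 0 h or exosome-treated 2 h, and without untreated 0.5 h replicate 2, untreated 4 h replicate 1 or 3, exosome-treated 0.5 h replicate 2 or exosome-treated 8 h replicate 3. The count at 2 h was 2 without untreated 8 h replicate 3 or exosome-treated 8 h replicate 1.

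The others called at 4 h were Mrpl36, Mrpl49, Mrpl17, Mrpl38 and Mrps7. Mrpl36, the large subunit protein whose promoter window holds both the E-box and the YY1 letters, had 998.4, 627.6 and 742.3 normalized counts in exosome-treated 4 h replicates 1, 2 and 3, against 465.8, 623.4, 683.1 and 641.5 in untreated cells at 0 h. Replicate 1, with muscle transcripts, was highest and replicate 2, of batch 1, lay within the 0 h range. Its log2 fold change was 0.40 ± 0.11 (SE; limma adjusted p = 0.0424), and 0.21 without the libraries with muscle transcripts. Mrps7, the small subunit's most abundant gene per kilobase, had 2265, 1717 and 2009, against 1526, 1686, 1667 and 1700, without overlap (log2 fold change 0.28 ± 0.082, SE; limma adjusted p = 0.0486), and its log2 fold change without those libraries was 0.25. Mrpl17 had 533.7, 411.3 and 534.2 normalized counts at 4 h and 395.1, 548.8 and 545.3 at 8 h in exosome-treated cells, against 399.5, 401.8, 405.4 and 437.2 at 0 h. Its batch 1 library lay within the 0 h range at 4 h and below it at 8 h, and its batch 2 libraries lay above that range. Mrpl17's log2 fold change was 0.28 at both times, with limma adjusted p-values of 0.0374 at 4 h and 0.0540 at 8 h. Mrpl49 and Mrpl38, also of the large subunit, had log2 fold changes of 0.29 (limma adjusted p = 0.0478) and 0.22 (limma adjusted p = 0.0482). None of the 6 calls at 4 h was left without the libraries with muscle transcripts. Only leaving out untreated 2 h replicate 1, 2 or 3, exosome-treated 2 h replicate 2, untreated 8 h replicate 1 or exosome-treated 8 h replicate 1 kept the count within 1.5 times of 6, and the count was 15 without exosome-treated 4 h replicate 2, 14 without untreated 8 h replicate 3 and 0 to 3 without any other single library. The count at 8 h was 6 without exosome-treated 8 h replicate 1 and 1 without untreated 0 h, 0.5 h or 2 h replicate 1, exosome-treated 4 h replicate 2 or untreated 8 h replicate 3. Shares of all genes called are not set beside these counts with libraries left out, so they are not read as particular to these genes.

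By role, the parts of the stalk and its base all rose in untreated cells at 8 h. Mrpl10, which anchors Mrpl12, had 1414, 1490 and 1206 normalized counts in untreated cells at 8 h, against 977.7, 1201, 1182 and 1109 at 0 h, a log2 fold change of 0.30 ± 0.083 (SE; limma adjusted p = 0.0104). Mrpl11, at the base of the stalk, had 761.3, 631.8 and 520.9, against 457.1, 420.7, 425.7 and 467, a log2 fold change of 0.50 ± 0.14 (SE; limma adjusted p = 0.00899). Neither gene's groups overlapped, and in both replicate 3 was the lowest at 8 h. Without the libraries with muscle transcripts the log2 fold changes of Mrpl10 and Mrpl11 were 0.093 and 0.24, and neither was called.

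In the small subunit, Mrps12, which helps to form the decoding centre, had 590.3, 657.7 and 496 normalized counts in untreated cells at 8 h, against 403.8, 457.2, 452.6 and 428.7 at 0 h (log2 fold change 0.42 ± 0.10, SE; limma adjusted p = 0.00563). Mrps6, a conserved protein of the small subunit, had 325.8, 386.7 and 373.7, against 262.5, 299.3, 312.8 and 301.1 (0.31 ± 0.077, SE; limma adjusted p = 0.00524). Neither gene's groups overlapped, and the lowest 8 h library was replicate 3 for Mrps12 and replicate 1 for Mrps6. For Mrps6 the log2 fold change without the libraries with muscle transcripts was 0.28, and for Mrps12 it was 0.15. Mrps2, another conserved protein of this subunit, had 534.5, 537.2 and 699.3 normalized counts at 8 h, against 546.5, 665.8, 600.7 and 593.6 at 0 h. There the libraries with muscle transcripts were the low ones, and the log2 fold change was -0.018 ± 0.10 (SE; limma adjusted p = 0.911) and 0.16 without them.

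Of the 3 paralogs of bacterial S18, 1 rose in untreated cells at 8 h, and the differences between them were not tested. Mrps18c, the one that takes the bacterial protein's place, had 597.5, 495.9 and 427.3 normalized counts at 8 h, against 351.9, 338.2, 350.8 and 381.9 at 0 h, and rose (log2 fold change 0.49 ± 0.18, SE; limma adjusted p = 0.0368; 0.26 and no call without the libraries with muscle transcripts). Mrps18b, which sits elsewhere in the small subunit, had 215.1, 292 and 261.4, against 194.7, 279.3, 239.7 and 264.9 (0.088 ± 0.082, SE; limma adjusted p = 0.431). Mrps18a, which is known to belong to the large subunit, had 458, 446.6 and 521.8, against 464.3, 418.3, 511.8 and 476.6 (0.035 ± 0.089, SE; limma adjusted p = 0.789). The groups overlapped for Mrps18a and Mrps18b and not for Mrps18c. The log2 fold changes without those libraries were 0.047 for Mrps18b and 0.13 for Mrps18a. Gm16279, on the opposite strand, shares 30.5% of the exon bases of Mrps18b. Of those of Mrps18c, 23.2% are shared with the same-strand gene Gm43511.

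Mrps30, Mrpl58, Mrps36 and Mrpl24 differ in where they sit or what they do. Mrps30, of the large subunit, had 487.7, 546.1 and 490.6 normalized counts in untreated cells at 8 h, against 356.2 to 394.7 at 0 h, and its log2 fold change was 0.46 ± 0.090 (SE; limma adjusted p = 0.00159) and 0.41 without the libraries with muscle transcripts. Mrpl58, which can free stalled peptides from the ribosome, had 922.4, 764.5 and 814.4, against 712.4 to 760.6 at 0 h, with no overlap and a log2 fold change of 0.16 ± 0.082 (SE; limma adjusted p = 0.143). Mrps36, now known as a subunit of the 2-oxoglutarate dehydrogenase complex, had 60.3, 70.4 and 86.5, against 63.5 to 78.7 (0.080 ± 0.13, SE; limma adjusted p = 0.673), and one of its processed pseudogenes averaged 82.1 normalized counts. With the libraries with muscle transcripts left out, the log2 fold changes were 0.10 for Mrpl58 and 0.26 for Mrps36 (limma adjusted p = 0.508). Mrpl24, a conserved protein near the exit tunnel, had 912.5, 978.1 and 655.6, against 682.1, 906.2, 902.4 and 876.6. Its 8 h libraries with muscle transcripts were the high ones and replicate 3 was below every 0 h library. The log2 fold change of Mrpl24 was 0.0075 ± 0.11 (SE; limma adjusted p = 0.967), and -0.38 without the libraries with muscle transcripts.

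Genes with bacterial counterparts and those found only in mitochondria both rose in untreated cells at 8 h, with the classes assigned after the values were seen and no test between them. In the large subunit, 24 of 29 conserved and 16 of 20 mitochondria-specific genes rose, with medians of 0.41 and 0.35. In the small subunit, 11 of 15 conserved and 8 of 14 mitochondria-specific genes rose, with medians of 0.34 and 0.37. Without the libraries with muscle transcripts, where 0 genes were called, the 4 medians were 0.22, 0.23, 0.18 and 0.22 in the same order. Of the 26 genes with the shortest exons 22 rose, of the middle 26 genes 18 and of the longest 26 genes 19. Across the 78 genes, which share their libraries, the Spearman correlation of the log2 fold change with exon length was -0.23. Genes with the NRF1 letters in the promoter window rose in 12 of 14 cases, with a median of 0.40, and those without in 40 of 55, with a median of 0.37. For the ETS letters the counts were 19 of 26, with a median of 0.41, and 33 of 43, with a median of 0.37. For the YY1 letters they were 5 of 8 and 47 of 61, with medians of 0.37 and 0.38, and for the E-box 4 of 5 and 48 of 64, with medians of 0.49 and 0.37.

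Other genes that serve mitochondrial translation were examined in untreated cells at 8 h against 0 h, where 15.9% of all genes rose and 15.8% fell. Of 5 mitoribosomal proteins with other names, 3 rose (Gadd45gip1, Aurkaip1 and Chchd1, with log2 fold changes of 0.46, 0.60 and 0.66), and the median was 0.46. Of 27 genes for ribosome assembly and RNA modification 11 rose and 0 fell, with a median of 0.26. Among them, Rpusd3, Mrm2 and Mrm3, which modify mitochondrial RNA, had log2 fold changes of 0.83, 0.56 and 0.46. Of 16 translation factors and insertion proteins 2 rose (Slirp and the elongation factor Tsfm) and 2 fell (the initiation factor Mtif2 and the recycling factor Gfm2), with a median of 0.078. Of 17 mitochondrial aminoacyl-tRNA synthetases 4 rose and 0 fell, with a median of -0.0023. Of 13 genes for mitochondrial transcription and RNA processing 3 rose and 1 fell, with a median of 0.017. In lists this small, these counts and those of the translation factors are not read as different from the shares of all genes. Cytosolic ribosomal proteins, 51 of 79 of which rose with a median of 0.46, and nuclear-encoded respiratory chain and ATP synthase subunits, 63 of 80 of which rose with a median of 0.42, stood beside the 78 mitoribosomal genes, of which 59 rose with a median of 0.37. Between exosome-treated and untreated cells at 8 h, limma called 0 genes in each of these lists, against 0.452% of all genes. The medians were -0.36 for cytosolic ribosomal proteins, -0.32 for respiratory chain subunits and -0.24 for the 78 genes. Without the libraries with muscle transcripts, limma called no gene higher in any of these lists in untreated cells at 8 h, and called 2 lower, the translation factor Guf1 (log2 fold change -0.43) and the cytosolic ribosomal protein Rpl10a (-0.77). The medians were then 0.23 for cytosolic ribosomal proteins, 0.24 for respiratory chain subunits, 0.22 for the 78 genes, 0.21 for the 5 mitoribosomal proteins with other names and 0.058 for assembly and RNA modification, with 0.018 over all genes. They were 0.12 for translation factors, 0.031 for aminoacyl-tRNA synthetases and 0.043 for transcription and RNA processing.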

How the data were processed

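RNA-seq read counts of 28 CTLL2 libraries were deposited by the authors as 1 table of normalized counts per gene (a signal: counts divided by library size factors). Per the submitters' processing notes, R 3.3.2, DESeq2, featureCounts 1.5.0, STAR 2.4.2 and CASAVA 1.8.4 were used with build GRCm38.p2; their order and settings were not known from the sources at hand. Within each library, 100% of values were whole multiples of 1 step (within 0.01 read), so the reads behind them could be recovered, and depth comes from these sums. The labels name a kit that does not mark strand.

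Gene names came from GENCODE M21, in which 30439 of 30608 identifiers were found; 57 of the 78 genes had the same identifier version. Coordinates are those of GRCm38.p6. Promoter windows are from RefSeq.

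Log2 values of the normalized count plus 1 were tested with limma 3.58.1 (R 4.3.3), allowing the variance to follow the mean, with 1 mean for each of 9 groups and batch as a covariate (18 residual degrees of freedom), over the 14828 genes that reached 10 normalized counts in 3 or more libraries. The test was two-sided, and a gene was called below an adjusted p of 0.05 (Benjamini-Hochberg over all genes tested). Fold changes are on the log2(value + 1) scale and understate changes of low genes. The procedure was tested on simulated data with independent genes, the same dispersion for each gene and no batch effect. That test therefore does not cover batch or the muscle transcripts. Alternatives were edgeR 4.0.16 (quasi-likelihood) and DESeq2 1.42.0 on recovered reads, TMM scaling, pseudocounts of 5 and 0.5, no filter, a filter of 50, no batch term, batch 2 alone, a replicate block, each library left out, 2 libraries with few genes at 0 left out, and, added after the data were seen, 8 libraries at 50 or more normalized counts of Acta1 left out, and exosome-treated groups against 0 h. On recovered reads, edgeR called 4620 genes in untreated cells at 8 h against 0 h and 65 between exosome-treated and untreated cells at 8 h. SE is the fit's standard error. A count of 0 allows up to 3 reads, which is 1.88 to 7.47 normalized counts across libraries, and covers counting error only.

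Genes named in a comparison are up to 5 called genes in each direction with the largest change and 1 direction in both batches, or, if no gene was called, the 2 of lowest p. Mrpl10, Mrpl11, Mrpl12, Mrpl24, Mrpl58, Mrps2, Mrps6, Mrps12, Mrps18a, Mrps18b, Mrps18c, Mrps30 and Mrps36 were added whatever their values, and the 4 highest and 4 lowest per kilobase for levels; all other names were chosen after their values were seen. The genes and lists were chosen with earlier results of these data known.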

Additional observations from a re-analysis of the deposited data

Results flagged for a closer look

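In the 4 untreated 0 h libraries, the only group large enough for the check, 4 of the 33 values examined had 1 library set apart from the other 3 by a gap that filled most of the group's range (Dixon's test at 95%); chance gives about 1 in 20. Mrpl12 was low in replicate 1, at 1546 normalized counts, against 2032, 2101 and 2062 in the others. Mrpl24 was low in the same library, at 682.1, against 906.2, 902.4 and 876.6. Replicate 1 is the batch 1 library of this group. Mrpl14 was high in replicate 3, at 265.6, against 196.1, 203.9 and 198.9. Mrpl17 was high in replicate 4, at 437.2, against 399.5, 401.8 and 405.4.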

How the results depend on the processing

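The direction of both subunit medians in untreated cells at 8 h held under every alternative run. Their size and the calls depended on 2 of the 3 libraries: without the 8 libraries with muscle transcripts the 59 calls became 0 and the medians 0.226 (large) and 0.211 (small), and the 43 calls over time became 6. With no batch term the 59 became 34 and the 43 became 3. Leaving out 1 library gave 34 to 60 calls at 8 h and 12 to 53 over time. In batch 2 alone the small subunit's median at 8 h was 0.266. Against untreated 8 h, exosome-treated cells had 15 calls by DESeq2, the medians were -0.095 (large) and -0.081 (small) without the muscle libraries, and the small subunit's was -0.084 in batch 2 alone. Leaving out 1 library gave 0 to 40 calls there and 0 to 15 for an exosome effect that differs between times. No shares of all genes called are set beside the counts in this section, so none is read as particular to the mitoribosomal genes.

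For untreated 2 h, the count of 2 calls became 0 with no filter, no batch term, the replicate block or without the 2 libraries with few genes at 0, 1 in batch 2 alone, 1 without the muscle libraries (Mrpl1, neither of the 2), and 0 to 2 with 1 library left out. For untreated 4 h, the 1 call became 0 with no filter, no batch term, the replicate block or without the 2 libraries, 5 in batch 2 alone, and 0 to 1 with 1 library left out. For exosome-treated cells against 0 h, the 1 call at 2 h became 0 with no filter, no batch term, the replicate block, without the 2 libraries or without the muscle libraries, 2 in batch 2 alone, and 0 to 2 with 1 library left out. The 6 calls at 4 h became 10 by DESeq2, 26 in batch 2 alone, 1 with no filter, the replicate block or without the 2 libraries, 0 with no batch term or without the muscle libraries, and 0 to 15 with 1 library left out. The 0 calls at 8 h became 2 by DESeq2, 11 in batch 2 alone, and 0 to 6 with 1 library left out. Counts of calls under each setting, such as those in batch 2 alone, may follow the call rate over all genes, which is not given here. Small subunit medians at 0.5 h in batch 2 alone were -0.0145 against untreated 0.5 h and -0.0389 against 0 h, and 0.0544 at 2 h against 0 h without the muscle libraries. With 1 library left out, the small subunit's medians were -0.0113 to 0.0621 for exosome-treated against untreated 0.5 h, 0.271 to 0.399 for untreated 8 h against 0 h, and -0.0328 to 0.0277, 0.0579 to 0.172 and 0.0770 to 0.204 for exosome-treated 0.5, 2 and 8 h against 0 h. The large subunit's was 0.0930 to 0.212 for exosome-treated 8 h against 0 h.

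Among single genes near 0, the log2 fold change changed sign for Mrps11 in exosome-treated against untreated 2 h (-0.0047 without the muscle libraries, -0.011 to 0.315 without single libraries). In untreated 8 h against 0 h it did so for Mrps18a (-0.0285 to 0.103 without single libraries), for Mrps36 (-0.0136 to 0.140), for Mrpl24 (-0.160 in batch 2 alone, -0.385 without the muscle libraries, -0.0951 to 0.205 without single libraries) and for Mrps2 (0.158 without the muscle libraries, -0.114 to 0.0843 without single libraries). The causes were not tested.

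Deviations from group means were compared between libraries of different groups. Libraries with the same replicate number had a median correlation of 0.257 (lowest -0.648), against 0.0399 for other numbers, and 15 of 28 correlated best with their own number. Batch was not removed first, and the median was 0.35 within a batch and -0.453 between batches. The check therefore cannot decide whether replicate numbers carry a pairing. With the replicate block, 53 of 78 genes were called at untreated 8 h, all among the 59, and 31 over time. Shallow libraries limit Mrpl53, Mrpl23, Mrps33 and Mrps36 most.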

Other observations

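At 2 h the single batch 1 library of each treatment stood apart from its batch 2 counterparts. Exosome-treated 2 h replicate 2 lay 0.33 (large) and 0.19 (small) above 0 h of its batch in the subunits' median log2 difference, with 228.7 normalized counts of Acta1, while replicates 1 and 3 lay 0.085 above for the large subunit. Untreated 2 h replicate 1 lay 0.31 and 0.34 above with 2.7 normalized counts of Acta1, while replicates 2 and 3 lay 0.093 and 0.061 above for the large subunit. That batch has 1 library at 0 h, so the values have no replicate check.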
